A study of Homo sapiens with 6 samples.

Results

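Cadherins are calcium-dependent cell adhesion proteins, and 96 of the 35130 gene names listed for SK-N-BE(2) neuroblastoma cells belong to the cadherin and protocadherin symbols examined here. Members were all names made of CDH and a number, or of PCDH and letters or digits. They comprise 18 classical cadherins, 5 other CDH genes, 13 single protocadherins, 53 clustered protocadherins and 7 pseudogenes. Cells were treated for 24 h with 1 µM NEN (3 libraries) or with the solvent DMSO (3 libraries). SK-N-BE(2) is an established human line with amplified MYCN, which the labels give as neuroblastoma cells from bone marrow. All 6 libraries come from this single line, and no untreated cells were analysed here. NEN is named by its abbreviation alone in the labels; published work on neuroblastoma uses it for niclosamide ethanolamine, a mitochondrial uncoupler, and that identity is background. The labels call the replicates biological and do not name separate cultures, so p-values measure the spread between these libraries, which may be technical.

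Classical cadherins bind cadherins on the neighbouring cell through their extracellular repeats, and their cytoplasmic tails bind beta-catenin and p120-catenin, with alpha-catenin linking beta-catenin to actin. Type I members such as N-cadherin and type II members such as CDH11 differ in the first extracellular repeat, where partners meet. Single protocadherins, of the delta-1 and delta-2 groups and a few others, lie at separate places in the genome and have tails without the catenin-binding region. The clustered genes PCDHA, PCDHB and PCDHG lie side by side on chromosome 5. In neurons each variable exon has its own promoter, a cell uses a few of them, and CTCF and cohesin bring the chosen promoters to distant enhancers. In PCDHA and PCDHG each variable exon is spliced to constant exons shared across its cluster, while PCDHB genes have no such shared exons.

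Most promoters of the clustered genes share a short element whose core letters are CGCT. In the stretches printed here for 8 genes, every match of these letters on the printed strand is marked. Matches farther from the start, on the other strand or at another start of the same gene are not shown. Whether a match is part of that element was not tested, and a gene can hold several matches. The 8 genes were taken from those with a match near the start. They were chosen to set strongly and weakly expressed members of the 3 clusters side by side and to include the clustered genes that passed the test below. Each line gives 120 bases before the transcript start on the plus strand of chromosome 5, from RefSeq on GRCh38.p14, with CGCT in capitals.
PCDHGC3, chr5:141475846-141475965: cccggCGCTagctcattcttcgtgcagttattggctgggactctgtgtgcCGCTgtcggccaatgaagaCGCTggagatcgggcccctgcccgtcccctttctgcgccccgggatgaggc
PCDHGB1, chr5:141349979-141350098: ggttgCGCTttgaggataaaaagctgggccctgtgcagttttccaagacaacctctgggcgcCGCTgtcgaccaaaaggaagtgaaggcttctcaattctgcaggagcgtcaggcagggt
PCDHGB7, chr5:141417557-141417676: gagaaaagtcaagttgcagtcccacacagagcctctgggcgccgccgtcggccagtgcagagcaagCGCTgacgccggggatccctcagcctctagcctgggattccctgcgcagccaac
PCDHGA11, chr5:141420931-141421050: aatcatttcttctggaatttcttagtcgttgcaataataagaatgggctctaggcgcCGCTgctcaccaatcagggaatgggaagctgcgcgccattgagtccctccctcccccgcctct
PCDHB16, chr5:141182267-141182386: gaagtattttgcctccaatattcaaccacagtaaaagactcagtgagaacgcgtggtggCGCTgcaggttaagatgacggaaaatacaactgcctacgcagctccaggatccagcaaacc
PCDHB1, chr5:141051254-141051373: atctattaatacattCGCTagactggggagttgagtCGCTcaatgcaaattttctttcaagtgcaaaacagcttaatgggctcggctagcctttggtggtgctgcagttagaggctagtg
PCDHA11, chr5:140868837-140868956: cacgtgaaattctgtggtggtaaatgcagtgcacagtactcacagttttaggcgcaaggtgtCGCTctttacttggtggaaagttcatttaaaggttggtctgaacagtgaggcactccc
PCDHA1, chr5:140786020-140786139: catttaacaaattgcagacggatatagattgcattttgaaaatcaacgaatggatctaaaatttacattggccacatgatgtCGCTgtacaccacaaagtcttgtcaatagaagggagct

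Across both groups the mean levels of these 8 genes were 83.1 TPM for PCDHGC3, 6.92 TPM for PCDHGB1, 6.69 TPM for PCDHGB7 and 0.337 TPM for PCDHGA11. They were 12.2 TPM for PCDHB16, 0.240 TPM for PCDHB1, 6.08 TPM for PCDHA11 and 0.0911 TPM for PCDHA1. That the core letters stand upstream of strongly and of weakly expressed members here follows from how the 8 genes were chosen. These 8 genes cannot show whether the letters go with expression level. RefSeq windows of 300 bases (250 before and 50 after the start) were found for 70 of the 96 members, among them 47 of the 53 clustered genes with 52 windows. On either strand CGCT occurred in 51 of the 52 clustered windows (98.1%), against 70.0% of all 35116 promoter windows. On the sense strand between 100 and 30 bases before the start, a band chosen after the positions were seen, it occurred in 43 of 52 clustered windows (82.7%). The same band held it in 38.9% of the 18 windows of classical cadherins, in 20.0% of the 15 windows of single protocadherins and in 21.6% of all windows. Genes without it in the band were PCDHA9, PCDHB5, PCDHB8 and PCDHGB2, with means over both groups between 0.152 and 1.74 TPM, while the 43 genes with it ranged from 0.0911 to 83.1 TPM. Searched on both strands, the E2-box CACCTG, the letters that SNAI and ZEB repressors bind, occurred in 5 of 52 clustered windows (9.62%) and in 20.6% of all. The E-box CACGTG, bound by MYC family factors, occurred in 3 of 52 (5.77%) and in 7.26% of all. The CTCF core, searched on both strands as a single pattern that allows alternative letters at several positions, occurred in 0 of 52 and in 1.71% of all. Whether CTCF binds these windows through other letters was not tested. The count of 0 therefore does not show that the clustered windows lack CTCF sites. None of these letter strings contains another, and letter matches describe these windows and show no binding.

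Transcript levels are TPM, a measure of abundance per transcript length within a library, so levels can be set side by side between genes. The listed genes sum to 929054 to 929189 TPM in NEN libraries and 932109 to 933500 TPM in DMSO libraries. TPM keeps no depth, so the sequencing depth is unknown. The filter kept every gene whose average over the 6 libraries reached 1 TPM, 12576 in all, and a gene was called at an adjusted p of 0.05 in limma. A fold change is the NEN mean less the DMSO mean of log2(TPM + 1), given ± SE, a scale that shrinks the changes of low genes. All 9 neuroblastoma markers passed the filter, with 13.4 to 2668 TPM in NEN and 7.04 to 3153 TPM in DMSO libraries. Summed over 6 stromal markers, levels were 25.9 to 31.2 TPM in NEN and 16.1 to 20.9 TPM in DMSO libraries. Without PDGFRB they were 3.36 to 11.9 TPM in NEN and 7.5 to 9.88 TPM in DMSO libraries. Epithelial markers summed to 7.09 to 14.6 TPM in NEN and 8.35 to 10.9 TPM in DMSO libraries, Schwann cell markers to 10.4 to 15.4 TPM and 10.8 to 16.0 TPM, and endothelial markers to 0.509 to 1.08 TPM and 0.739 to 1.22 TPM. Haematopoietic markers summed to 0.283 to 0.449 TPM in NEN and 0.657 to 1.92 TPM in DMSO libraries. KDR, an endothelial receptor, and HBB, a globin, were listed at 0 in all 6. Whether other cells have a part in any result below was not tested, and in bulk RNA fewer cells of a type and less RNA per cell cannot be told apart.

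Of the 96 members 38 passed the filter: 7 classical cadherins, 10 single protocadherins, 20 clustered protocadherins and the pseudogene PCDHB18P. NEN-treated cells had lower mRNA of CDH2, CDH10, CDH11 and PCDH19 and higher mRNA of CDH24, PCDHGB1 and PCDHGB7. Thus 3 members were called higher, where 13.5% of all genes tested were, and 4 were called lower, where 16.5% were. In either direction 7 of 38 (18.4%) passed, below the 30.0% of all genes tested. At an unadjusted p of 0.05 it was 13 of 38, where 41.7% of all genes tested passed. The 3 NEN libraries lay all above or all below the 3 DMSO libraries for 19 of 38 members (50.0%), near the 46.8% of all genes tested. For 10 of them NEN lay above and for 9 below.

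**Figure D1:**
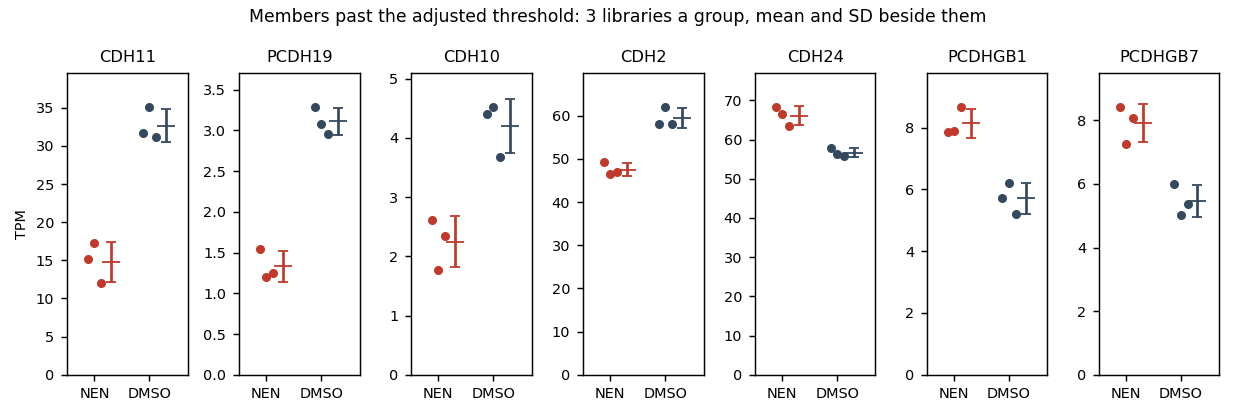
TPM (linear axis from 0, a scale of its own for each gene) of the 7 members past the threshold in each of 3 NEN libraries (left) and 3 DMSO libraries (right), with the group mean and SD beside the points. The groups do not overlap for any of the 7 genes; CDH11 lies at 12.05 to 17.2 TPM in NEN and 31.2 to 35.1 TPM in DMSO libraries.

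By class the tested members divided as follows. Among the classical cadherins 1 was called higher and 3 lower of 7, with a median fold change of -0.19. Single protocadherins had 0 called higher and 1 lower of 10, with a median of -0.29, and 9 of the 10 fold changes were below 0. Clustered protocadherins had 2 called higher and 0 lower of 20, with a median of 0.09, and 13 of the 20 were above 0. Over all genes tested 13.5% were called higher and 16.5% lower, and the median was -0.02. Of these 12576 genes, 5986 had fold changes above 0 and 6590 below. The differences between these classes were not tested.

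**Figure D2:**
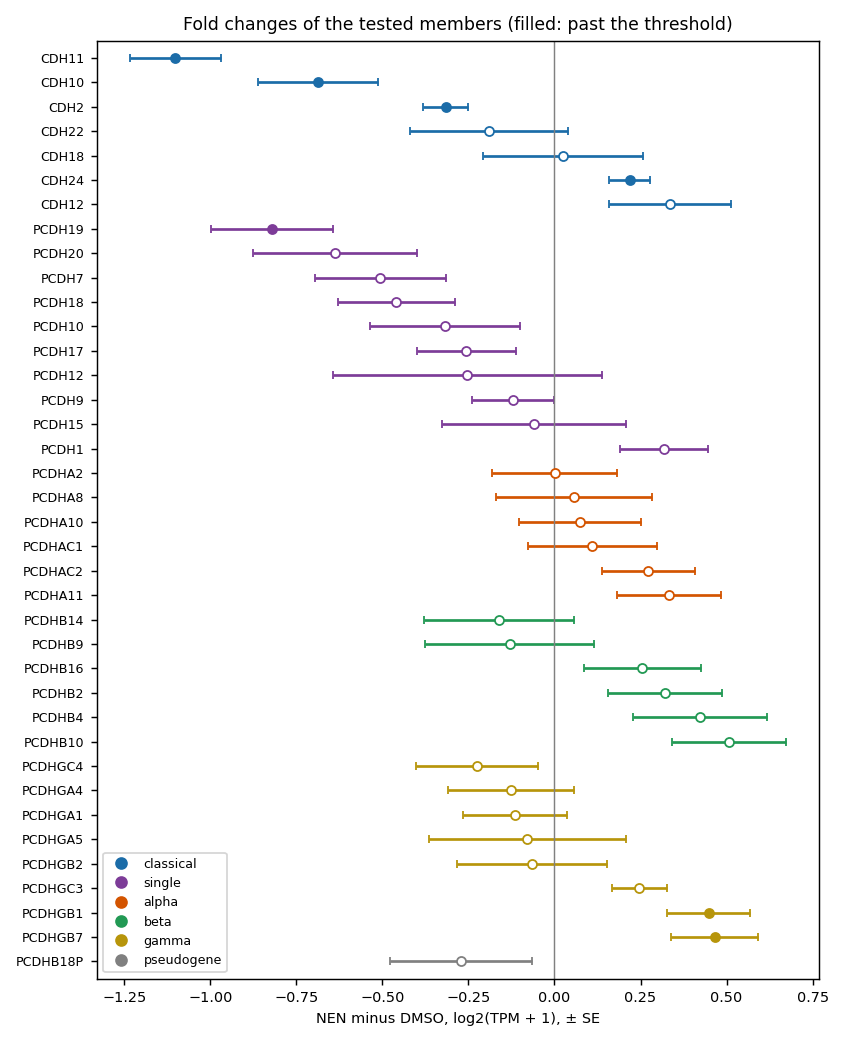
Fold change (NEN minus DMSO, log2(TPM + 1), horizontal axis) with its SE for the 38 tested members, grouped and coloured by class; filled points passed an adjusted p of 0.05 in limma. Of the 10 single protocadherins 9 lie below 0, and of the 20 clustered genes 13 lie above 0. Of all 12576 genes tested, which are not drawn, 5986 lay above 0 and 6590 below.

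Classical cadherins were led by CDH24, CDH2 and CDH11, which made up 90.1% to 92.5% of the summed TPM of the 18 classical genes in NEN libraries and 91.3% to 92.5% in DMSO libraries. That sum was 145, 141 and 136 TPM in NEN libraries and 162, 167 and 157 TPM in DMSO libraries, so the groups did not overlap. Within it the order of the leading genes differed: CDH24 was the highest in every NEN library, and CDH2 the highest in every DMSO library. In DMSO replicate 1 the 2 genes were nearly level, with CDH2 at 58.07 TPM and CDH24 at 57.92 TPM. CDH24 took 46.7% to 47.3% of the sum in NEN libraries and 33.7% to 35.8% in DMSO libraries.

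CDH2 encodes N-cadherin, the type I cadherin of neural and mesenchymal cells. Its level was 49.2, 46.4 and 47.0 TPM in NEN libraries, against 58.1, 62.1 and 58.2 TPM in DMSO libraries. All NEN values were below all DMSO values, and CDH2 fell by 0.32 ± 0.06 (limma adjusted p = 0.0102). CDH2 accounted for 95.9% to 97.7% of the summed TPM of the 5 type I genes in NEN and 97.6% to 98.4% in DMSO libraries. CDH1, which encodes the epithelial E-cadherin, was below the filter with 0.0496, 0.187 and 0.377 TPM in NEN libraries and 0.720, 0.403 and 0.209 TPM in DMSO libraries. CDH3 (P-cadherin) and CDH15 (M-cadherin of muscle) stayed at or below 0.252 TPM in every library. CDH4, which encodes R-cadherin of the retina and brain, had 1.05, 1.39 and 1.52 TPM in NEN libraries and 0.623, 0.565 and 0.702 TPM in DMSO libraries. These 2 groups did not overlap, but the mean of CDH4 (0.974 TPM) lay just under the filter, and in a fit with no filter its adjusted p was 0.113.

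CDH11, a type II cadherin of mesenchymal and neural crest cells, had the lowest fold change of all 38 members. CDH11 was at 15.2, 17.2 and 12.05 TPM in NEN libraries, against 31.7, 35.1 and 31.2 TPM in DMSO libraries. CDH11 fell by 1.10 ± 0.13 on the log2 scale (limma adjusted p = 0.0016), and the mean ratio of NEN to DMSO was 0.454. CDH10, a type II cadherin of brain, had 2.62, 1.77 and 2.34 TPM in NEN libraries and 4.40, 4.52 and 3.68 TPM in DMSO libraries. Again the groups stayed apart, and CDH10 fell by 0.69 ± 0.17 (limma adjusted p = 0.0241). Its call was lost without NEN replicate 2 (-0.58), NEN replicate 3 (-0.71), DMSO replicate 1 (-0.66) or DMSO replicate 2 (-0.64). CDH24, a type II cadherin that binds catenins, moved the other way, with 68.4, 66.5 and 63.5 TPM in NEN libraries and 57.9, 56.4 and 55.8 TPM in DMSO libraries. CDH24 rose by 0.22 ± 0.06 (limma adjusted p = 0.0324). The call of CDH24 held without DMSO replicate 1 and was lost on leaving out any other library (0.19 to 0.25), with no filter and with limma's plain settings.

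The remaining type II genes did not pass. CDH12, a brain cadherin, had 3.78, 2.69 and 3.31 TPM in NEN and 2.28, 2.67 and 2.14 TPM in DMSO libraries, which do not overlap (0.34 ± 0.18, limma adjusted p = 0.193). CDH18 had 1.17 ± 0.14 TPM in NEN and 1.14 ± 0.31 TPM in DMSO libraries (SD, n = 3 each), and CDH22 had 1.34 ± 0.44 TPM and 1.64 ± 0.07 TPM. Both overlapped between groups. CDH10, CDH12 and CDH18 all lie on chromosome 5, at places apart from the clustered genes, and were at -0.69, 0.34 and 0.02 on the log2 scale. Among type II genes below the filter, CDH6, a cadherin of kidney and neural crest, had 0.386, 0.397 and 0.554 TPM in NEN libraries and 1.84, 1.17 and 0.812 TPM in DMSO libraries. CDH5, which encodes the endothelial VE-cadherin, had 1.10, 0.630 and 1.53 TPM in NEN and 0.364, 0.593 and 0.144 TPM in DMSO libraries, while the endothelial markers summed to the levels given above. CDH19, a cadherin of Schwann cell precursors, lay at or below 0.00962 TPM in NEN libraries and had 0.607, 0.0221 and 0.0465 TPM in DMSO libraries. CDH7, CDH8, CDH9 and CDH20 overlapped between the groups and stayed at or below 0.608 TPM. The 5 other CDH genes (CDH13, CDH16, CDH17, CDH23 and CDH26) overlapped too. CDH13, a cadherin anchored by a lipid without a cytoplasmic tail, reached 1.17 TPM in NEN replicate 3, and CDH16, a kidney cadherin, was at 0.553 TPM in that library and listed at 0 in the other five. The summed epithelial markers were also at their highest in that library, with 14.6 TPM, as were the summed stromal markers without PDGFRB, with 11.9 TPM. KRT19, CLDN4 and ESRP1 each had their highest value in a DMSO library. The part of such cells in these values was not tested.

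**Figure D3:**
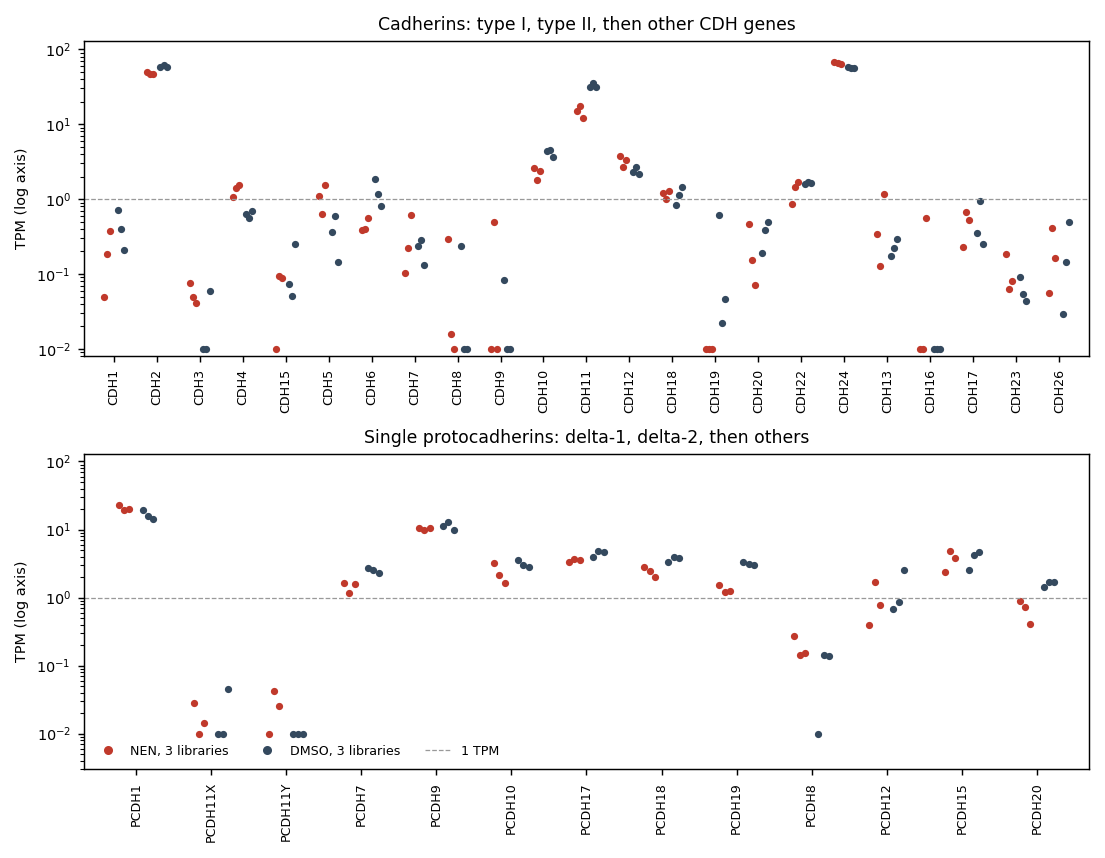
TPM per library (log axis) of the 23 CDH genes (above) and 13 single protocadherins (below), with NEN libraries left of DMSO libraries for each gene and a dashed line at 1 TPM; values under 0.01 TPM, 0 included, are drawn at 0.01. CDH24, CDH2 and CDH11 stand above the other CDH genes, and PCDH1 and PCDH9 above the other single protocadherins.

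Single protocadherins summed to 50.0, 47.1 and 45.4 TPM in NEN libraries and 51.6, 52.8 and 50.0 TPM in DMSO libraries. PCDH19, a delta-2 gene whose loss causes an X-linked epilepsy in people, was the member called. It had 1.55, 1.20 and 1.25 TPM in NEN libraries, against 3.29, 3.08 and 2.96 TPM in DMSO libraries. The NEN values all lay under the DMSO values, and PCDH19 fell by 0.82 ± 0.18 (limma adjusted p = 0.0131).

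The other 3 tested delta-2 genes had fold changes below 0 and did not pass the test. PCDH18 had 2.85, 2.46 and 1.99 TPM in NEN and 3.31, 3.93 and 3.87 TPM in DMSO libraries (-0.46 ± 0.17, limma adjusted p = 0.0816). PCDH17, which takes part in axon growth and synapse assembly in mice, had 3.38, 3.74 and 3.62 TPM in NEN and 3.91, 4.80 and 4.72 TPM in DMSO libraries (-0.26 ± 0.14, limma adjusted p = 0.219). For both the groups did not overlap. PCDH10, also called OL-protocadherin, overlapped between groups with 3.23, 2.14 and 1.65 TPM in NEN and 3.50, 3.00 and 2.78 TPM in DMSO libraries (-0.32 ± 0.22, limma adjusted p = 0.308). PCDH8 was below the filter and lay the other way, at 0.277, 0.144 and 0.152 TPM in NEN and 0, 0.141 and 0.137 TPM in DMSO libraries. Summed over the 5 delta-2 genes, NEN libraries held 11.3, 9.68 and 8.65 TPM and DMSO libraries 14.0, 15.0 and 14.5 TPM, which do not overlap.

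Delta-1 genes carried most of the class and went in both directions. PCDH1, the highest single protocadherin, had 22.8, 19.1 and 19.8 TPM in NEN and 19.1, 15.7 and 14.3 TPM in DMSO libraries, with the lowest NEN value just above the highest DMSO value (0.32 ± 0.13, limma adjusted p = 0.103). It passed without DMSO replicate 1 (0.43, adjusted p = 0.0371). PCDH9 had 10.3 ± 0.33 TPM in NEN and 11.3 ± 1.46 TPM in DMSO libraries (SD, n = 3 each; limma adjusted p = 0.483). PCDH7 had 1.65, 1.18 and 1.61 TPM in NEN and 2.68, 2.58 and 2.28 TPM in DMSO libraries (-0.51 ± 0.19, limma adjusted p = 0.0841). PCDH11X and PCDH11Y, a gene pair on the X and Y chromosomes with near-identical sequence, stayed at or below 0.0452 TPM, and their values cannot be told apart well. The delta-1 sum was 35.0, 30.2 and 31.8 TPM in NEN and 33.0, 31.1 and 26.5 TPM in DMSO libraries, which overlap.

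The 3 other single genes had fold changes below 0. PCDH20 had 0.882, 0.725 and 0.411 TPM in NEN and 1.42, 1.67 and 1.67 TPM in DMSO libraries (-0.64 ± 0.24, limma adjusted p = 0.0827). Only 4.21% of the 31-base stretches of its transcript in GENCODE release 29 are found in no other annotated gene, so its value may be uncertain. Whether shared reads altered the deposited value was not tested. With limma's plain settings PCDH20, PCDH7 and PCDH18 passed, at adjusted p = 0.0163, 0.0195 and 0.0361. PCDH12, a protocadherin of endothelium, had 0.947 ± 0.66 TPM in NEN and 1.37 ± 1.05 TPM in DMSO libraries (SD, n = 3 each). PCDH15, a tip-link protein of hair cells, had 3.63 ± 1.22 TPM and 3.81 ± 1.15 TPM. Both varied widely within a group and overlapped.

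Clustered genes ranged from 0.0911 to 83.1 TPM in their means over both groups. Of 53 genes 20 passed the filter, 6 in PCDHA, 6 in PCDHB and 8 in PCDHG. Summed levels were 209, 207 and 213 TPM in NEN libraries and 200, 182 and 171 TPM in DMSO libraries, which do not overlap. PCDHGC3 alone made up 42.1% to 43.5% of this sum in NEN libraries and 39.6% to 42.5% in DMSO libraries. Between 19 and 22 clustered genes reached 1 TPM in each NEN library, and between 20 and 22 in each DMSO library.

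**Figure D4:**
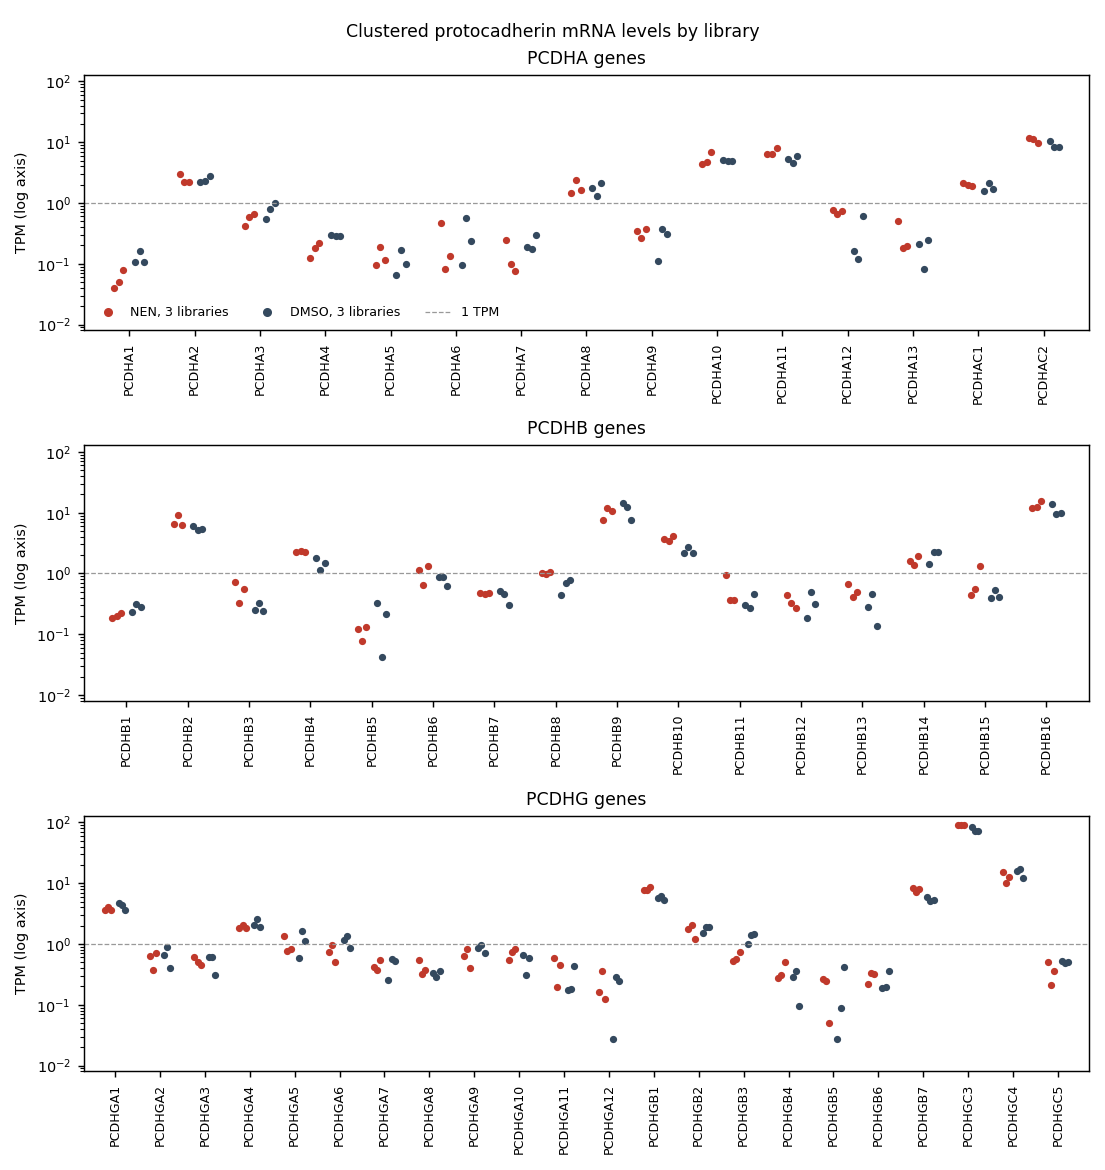
TPM per library (log axis) of the 15 PCDHA, 16 PCDHB and 22 PCDHG genes by gene number, with NEN libraries left of DMSO libraries for each gene and a dashed line at 1 TPM. In both groups a few genes of each cluster stand above the line, with PCDHGC3 the highest at 89.7 to 90.5 TPM in NEN and 71.0 to 85.2 TPM in DMSO libraries.

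Values of clustered genes carry an uncertainty of their own, because transcripts of a cluster share sequence and the deposited values depend on how shared reads were divided. Of the 31-base stretches in annotated transcripts, a median of 58.1% per clustered gene was found in no other member (range 26.6% to 99.1%), against 99.8% for classical cadherins. In PCDHA the median was 46.4%, in PCDHG 55.1% and in PCDHB 79.4%. PCDHGB1 shared 52.8% of its stretches with PCDHGB2, and PCDHGB7 shared 50.1% with PCDHGB6. Set against all annotated genes rather than members alone, 35.3% of PCDHGB1 stretches and 48.9% of PCDHGB7 stretches were found in no other gene. Over both groups PCDHGB2 averaged 1.74 TPM and PCDHGB6 0.270 TPM. PCDHGC3, at 83.1 TPM the highest clustered gene, shared 39.1% of its stretches with PCDHGB7, and the part of shared reads in any of these values was not tested.

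The gamma cluster summed to 137, 131 and 133 TPM in NEN libraries and 129, 119 and 109 TPM in DMSO libraries, which do not overlap. Within it, PCDHGB1 and PCDHGB7, both of the B type, were the clustered genes called. PCDHGB1 had 7.85, 7.88 and 8.67 TPM in NEN libraries, against 5.70, 6.20 and 5.21 TPM in DMSO libraries. PCDHGB1 rose by 0.45 ± 0.12 (limma adjusted p = 0.0292). PCDHGB7 had 8.43, 7.25 and 8.07 TPM in NEN libraries, against 6.002, 5.02 and 5.37 TPM in DMSO libraries. For both genes every NEN library stood above every DMSO library, and PCDHGB7 rose by 0.46 ± 0.13 (limma adjusted p = 0.0293). Both calls were lost with no filter (adjusted p = 0.0504 and 0.0516). PCDHGB1 passed only without DMSO replicate 2 among the fits that leave out 1 library (0.39 to 0.50), and PCDHGB7 only without DMSO replicate 1 (0.42 to 0.52). The other B-type genes were lower in level. PCDHGB2 had 1.68 ± 0.45 TPM in NEN and 1.79 ± 0.23 TPM in DMSO libraries (SD, n = 3 each). PCDHGB3, below the filter, had 0.532, 0.556 and 0.746 TPM in NEN and 0.992, 1.38 and 1.43 TPM in DMSO libraries. PCDHGB4 had 0.361 ± 0.13 TPM in NEN and 0.247 ± 0.14 TPM in DMSO libraries, PCDHGB5 had 0.185 ± 0.12 TPM and 0.176 ± 0.21 TPM, and PCDHGB6 had 0.290 ± 0.06 TPM and 0.249 ± 0.10 TPM (SD, n = 3 each), all overlapping. The 7 B-type genes summed to 19.3, 18.7 and 19.6 TPM in NEN and 14.7, 15.2 and 14.8 TPM in DMSO libraries, while the 12 A-type genes summed to 11.7, 11.5 and 10.8 TPM and 12.1, 13.9 and 11.0 TPM.

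The C-type genes of the gamma cluster, which neurons use more uniformly than the others, held 76.9% to 77.4% of its summed TPM in NEN and 75.4% to 79.1% in DMSO libraries. PCDHGC3, which can inhibit Wnt signalling in cultured cells, had 90.5, 90.2 and 89.7 TPM in NEN libraries and 85.2, 72.1 and 71.0 TPM in DMSO libraries. The groups did not overlap, though DMSO replicate 1 lay near the NEN values, and the test missed the threshold (0.25 ± 0.08, limma adjusted p = 0.0539). PCDHGC3 passed without DMSO replicate 1 (0.33, adjusted p = 0.00706), with median-ratio scaling (0.27), quantile normalization (0.32) and a minimum of 5 TPM. PCDHGC4, which neurons of mice need for survival, overlapped at 15.1, 10.2 and 12.8 TPM in NEN and 16.1, 16.9 and 11.97 TPM in DMSO libraries (-0.23 ± 0.18, limma adjusted p = 0.375). PCDHGC5 was below the filter. Of the A-type genes, PCDHGA1 had 3.79 ± 0.27 TPM in NEN and 4.20 ± 0.58 TPM in DMSO libraries, PCDHGA4 had 1.90 ± 0.11 TPM and 2.18 ± 0.34 TPM, and PCDHGA5 had 0.977 ± 0.32 TPM and 1.11 ± 0.51 TPM (SD, n = 3 each). These 3 overlapped between the groups.

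In the beta cluster no gene was called. PCDHB10 had 3.72, 3.39 and 4.16 TPM in NEN libraries and 2.13, 2.77 and 2.16 TPM in DMSO libraries (0.51 ± 0.17, limma adjusted p = 0.0557). PCDHB4 had 2.25, 2.37 and 2.23 TPM in NEN and 1.77, 1.14 and 1.48 TPM in DMSO libraries (0.42 ± 0.20, limma adjusted p = 0.145). The groups did not overlap for either gene, and both passed with limma's plain settings (adjusted p = 0.022 and 0.0374). PCDHB2 had 6.53, 9.17 and 6.20 TPM in NEN and 6.15, 5.17 and 5.41 TPM in DMSO libraries, which do not overlap by a narrow margin (0.32 ± 0.17, limma adjusted p = 0.186). The highest beta genes, PCDHB16 and PCDHB9, overlapped. PCDHB16 had 12.01, 12.6 and 15.3 TPM in NEN and 14.1, 9.37 and 9.86 TPM in DMSO libraries, and PCDHB9 had 7.71, 11.9 and 10.7 TPM and 14.3, 12.3 and 7.46 TPM. PCDHB14 had 1.64 ± 0.29 TPM in NEN and 1.97 ± 0.48 TPM in DMSO libraries (SD, n = 3 each). PCDHB8, below the filter, had 1.03, 0.996 and 1.06 TPM in NEN and 0.434, 0.698 and 0.788 TPM in DMSO libraries. The beta sum was 40.0, 45.2 and 46.8 TPM in NEN and 43.7, 37.4 and 32.4 TPM in DMSO libraries, which overlap. The pseudogene PCDHB18P had 1.08, 1.36 and 1.504 TPM in NEN and 1.83, 2.00 and 1.54 TPM in DMSO libraries (-0.27 ± 0.21, limma adjusted p = 0.358).

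In the alpha cluster all 6 tested genes had fold changes above 0, with PCDHA2 at 0.000633, and 0 were called. PCDHA2 turned to -0.03 with quantile normalization, while the other five kept their sign in each scaling. PCDHA11 had 6.44, 6.32 and 7.92 TPM in NEN libraries and 5.26, 4.50 and 6.04 TPM in DMSO libraries (0.33 ± 0.15, limma adjusted p = 0.139), and these groups did not overlap. PCDHAC2, the highest alpha gene, had 11.8, 11.5 and 9.70 TPM in NEN and 10.4, 8.25 and 8.22 TPM in DMSO libraries (0.27 ± 0.14, limma adjusted p = 0.1698). The others differed by less than their spread: PCDHA10 had 5.38 ± 1.43 TPM in NEN and 4.97 ± 0.13 TPM in DMSO libraries, PCDHA8 had 1.84 ± 0.48 TPM and 1.72 ± 0.40 TPM, and PCDHAC1 had 2.02 ± 0.12 TPM and 1.80 ± 0.28 TPM (SD, n = 3 each). PCDHA2 had 2.45 ± 0.44 TPM in NEN and 2.44 ± 0.27 TPM in DMSO libraries. The 15 alpha genes summed to 32.3, 31.4 and 33.0 TPM in NEN libraries and 28.2, 26.1 and 29.0 TPM in DMSO libraries, which do not overlap. The 9 alpha genes below the filter had at most 0.765 TPM in NEN and 0.990 TPM in DMSO libraries.

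Without a filter on low values none of the 58 members below it passed in limma, and the lowest of their adjusted p-values was the 0.113 of CDH4. Of these 58, the groups did not overlap for 11, where 9.23% of the 9031 genes below the filter with a value above 0 did not, at levels that were not matched. Among the 11, CDH4, CDH5, PCDH8, PCDHA12 and PCDHB8 were higher in NEN libraries, and CDH6, CDH19, PCDHA1, PCDHA4, PCDHB1 and PCDHGB3 lower.

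Catenins and junction linkers form a list of catenins, which join cadherins to actin, and other genes such as VCL, AFDN and KIF5B. Of 11 tested members 2 were called higher and 0 lower, with a median fold change of 0.09. Among all genes tested 13.5% were called higher and 16.5% lower, and neither this list nor those below were tested as sets. JUP, which encodes plakoglobin, a relative of beta-catenin in junctions, had 43.0, 38.4 and 44.0 TPM in NEN and 27.5, 24.5 and 28.5 TPM in DMSO libraries, and rose by 0.62 ± 0.09 (limma adjusted p = 0.00313). CTNNA1, the widely expressed alpha-catenin, rose by 0.32 ± 0.08 (limma adjusted p = 0.0188), a call lost without NEN replicate 1 (0.27), DMSO replicate 2 (0.31) or DMSO replicate 3 (0.28). CTNNA2, the neuronal alpha-catenin, was at 0.31 ± 0.11 (limma adjusted p = 0.0655) and passed without DMSO replicate 1 (0.42). CTNNB1, which encodes beta-catenin, had 34.6, 59.7 and 47.3 TPM in NEN and 63.0, 60.3 and 59.3 TPM in DMSO libraries (-0.39 ± 0.18, limma adjusted p = 0.132). NEN replicate 2 stood near the DMSO libraries, and without it CTNNB1 passed (-0.58, adjusted p = 0.0301). CTNND1, which encodes p120-catenin, had 18.3 ± 1.12 TPM in NEN and 17.1 ± 1.03 TPM in DMSO libraries (SD, n = 3 each).

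Transcriptional repressors that act on cadherin promoters during epithelial-mesenchymal transition had 3 of 7 tested members called higher and 0 lower, with a median of 0.58. The shares of all genes tested were 13.5% higher and 16.5% lower. SNAI1 had 25.6, 18.0 and 23.0 TPM in NEN libraries and 4.09, 4.50 and 4.20 TPM in DMSO libraries, and rose by 2.13 ± 0.14 (limma adjusted p = 0.000295). TWIST1 rose by 1.01 ± 0.06 (limma adjusted p = 0.000238) and SNAI2 by 0.80 ± 0.15 (limma adjusted p = 0.00816). ZEB1 was at 0.58 ± 0.20 (limma adjusted p = 0.069) and ZEB2 at -0.22 ± 0.14 (limma adjusted p = 0.264). Beside these values the known target CDH1 stayed below the filter in both groups.

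Genes for promoter choice and silencing at the clustered locus had 2 of 23 tested members called higher and 6 lower, with a median of -0.14. Of all genes tested 13.5% were called higher and 16.5% lower. CTCF, the insulator protein, had 33.2, 32.2 and 36.5 TPM in NEN and 36.0, 34.3 and 34.7 TPM in DMSO libraries (-0.04 ± 0.08, limma adjusted p = 0.718), and was at 0.02 with quantile normalization. RAD21, a cohesin subunit, was at -0.14 ± 0.06 (limma adjusted p = 0.136), while STAG1, another subunit, fell by 0.57 ± 0.11 (limma adjusted p = 0.01004). WAPL, the cohesin release factor listed under its older symbol WAPAL, fell by 0.35 ± 0.08 (limma adjusted p = 0.018), a call lost without NEN replicate 2 (-0.34), NEN replicate 3 (-0.34) or DMSO replicate 2 (-0.31). DNMT1, the maintenance DNA methyltransferase, had 87.9, 87.5 and 96.1 TPM in NEN libraries and 139, 136 and 145 TPM in DMSO libraries, and fell by 0.62 ± 0.06 (limma adjusted p = 0.000786). DNMT3B, which methylates clustered protocadherin promoters in mice, fell by 0.49 ± 0.12 (limma adjusted p = 0.022), and that call held only without NEN replicate 2 among the fits that leave out 1 library (-0.54 to -0.46). DNMT3A, named after its values were seen, went the other way, with 76.9 ± 0.41 TPM in NEN and 61.2 ± 6.53 TPM in DMSO libraries (SD, n = 3 each), and rose by 0.33 ± 0.08 (limma adjusted p = 0.0245). Its call held only without DMSO replicate 1 or DMSO replicate 3 among the fits that leave out 1 library (0.25 to 0.40), and was lost with no filter and with limma's plain settings. SETDB1, a histone H3 lysine 9 methyltransferase, rose by 0.38 ± 0.08 (limma adjusted p = 0.0102). SMCHD1, which silences clustered protocadherins in mice, was at -0.43 ± 0.14 (limma adjusted p = 0.0539) and passed without NEN replicate 3 (-0.53).

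Among 15 genes that cut or mature cadherins, 11 were tested, 3 were called higher and 0 lower, with a median of 0.09. Calls over all genes tested were 13.5% higher and 16.5% lower. NCSTN, a gamma-secretase subunit, rose by 0.36 ± 0.08 (limma adjusted p = 0.0136), and FURIN, which removes cadherin propeptides, by 0.46 ± 0.10 (limma adjusted p = 0.0147). The FURIN call was lost without NEN replicate 3 (0.44). ADAM15, a membrane metalloprotease, rose by 0.39 ± 0.10 (limma adjusted p = 0.0295) but passed without NEN replicate 2 and without DMSO replicate 3 alone among the fits that leave out 1 library (0.29 to 0.47). All 12 genes of protocadherin partners, the WAVE actin-regulating complex and focal adhesion kinases, were tested. Here 2 were called higher and 0 lower, beside the same 13.5% and 16.5% of all genes tested. WASF2, a WAVE subunit, rose by 0.45 ± 0.08 (limma adjusted p = 0.00662). PTK2B, which binds protocadherin tails, rose by 0.92 ± 0.26 (limma adjusted p = 0.033), and the call held only without NEN replicate 3 or DMSO replicate 2 (0.74 to 1.14).

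Other members of the cadherin superfamily had 3 of 12 tested genes called higher and 2 lower, with a median of -0.01. For all genes tested the shares were 13.5% higher and 16.5% lower. RET, a receptor kinase with cadherin-like repeats, had 205, 216 and 210.4 TPM in NEN libraries and 338, 343 and 342 TPM in DMSO libraries, and fell by 0.69 ± 0.05 (limma adjusted p = 0.000295). CLSTN3, a synaptic calsyntenin, had 10.2, 11.9 and 10.9 TPM in NEN and 6.59, 5.17 and 3.85 TPM in DMSO libraries, and rose by 0.98 ± 0.18 (limma adjusted p = 0.00674). CDHR1, a photoreceptor cadherin, rose by 0.73 ± 0.20 (limma adjusted p = 0.0296), and CDHR2, a cadherin of intestinal microvilli, fell by 0.93 ± 0.25 (limma adjusted p = 0.0299). The CDHR1 call held only without DMSO replicate 2 (0.62 to 0.81 over the fits that leave out 1 library), and the CDHR2 call only without NEN replicate 2 or DMSO replicate 2 (-1.20 to -0.75). The desmosomal cadherins DSC1, DSG1 and DSG4 were listed at 0 in all 6 libraries.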

How the data were processed

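RNA-seq was taken from 6 libraries of SK-N-BE(2) cells, grouped by the treatment in the labels: 3 NEN and 3 DMSO. The authors deposited TPM values, 1 column per library; kallisto and hg19 are named per the submitters' processing notes, with no version in the labels. Per the labels' protocols, RNA was extracted with Trizol, and both polyA capture and rRNA removal are mentioned. The TPM of clustered protocadherins depend on how reads shared between transcripts were divided.

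From these, log2(TPM + 1) was tested with limma 3.58.1 in R 4.3.3 (trend and robust settings, group alone, two-sided, Benjamini-Hochberg adjustment over the 12576 genes that averaged 1 TPM or more, threshold 0.05). The fit was checked on simulated data. The fit was repeated without each library, with a replicate block, with no filter, a minimum of 5 TPM, median-ratio scaling, quantile normalization, plain settings, pseudocounts of 0.1 and 5, and an adjusted p of 0.01. Every tested member is named; from each pathway list up to 4 called genes with the smallest adjusted p are named, with 12 genes always given. Members and lists were chosen with earlier results of these data known. Older symbols were matched for AFDN and WAPL. Stretches of 31 bases came from GENCODE release 29 and promoters from RefSeq on GRCh38.p14, so no coordinates were taken across builds. Figures used matplotlib 3.10.9 in Python 3.11.15.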

Additional observations from a re-analysis of the deposited data

How the results depend on the processing

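CDH11, CDH2 and PCDH19 were called lower in each of the 6 fits that leave out 1 library and in every other setting tried at an adjusted p of 0.05 that kept them in the test (a minimum of 5 TPM removes PCDH19). Counts of called members moved more. With a replicate block, 0 members were called higher, 0 of them clustered, and 3 lower. Same-numbered libraries had correlations of 0.0117, -0.00755 and -0.0278, so no pairing by number was seen. Such values cannot exclude that same-numbered libraries were handled together. With no filter 0 were called higher, 0 clustered. Median-ratio scaling gave 5 higher, 4 of them clustered; plain limma settings gave 4 clustered genes higher and 7 members lower; a minimum of 5 TPM gave 2 lower; and an adjusted p of 0.01 gave 0 higher, 0 clustered, and 1 lower. Leaving out 1 library gave 0 to 4 members higher, 0 to 2 of them clustered, and 3 to 4 lower. Among these results the sign turned for genes near 0. With quantile normalization CTCF was at 0.0162 and PCDHA2 at -0.028, and with a pseudocount of 0.1 PCDHA2 was at -0.00116. Over the fits that leave out 1 library, CDH18 ranged from -0.0821 to 0.130, PCDH15 from -0.271 to 0.157, PCDHA2 from -0.102 to 0.065, PCDHA8 from -0.0761 to 0.154 and PCDHA10 from -0.103 to 0.181. PCDHB9 ranged from -0.380 to 0.0466, PCDHGA5 from -0.268 to 0.00174 and PCDHGB2 from -0.172 to 0.0698. The median of single protocadherins became 0.10 at a minimum of 5 TPM, where 2 genes remain. The cause of these changes was not tested. Of 506 recomputed values of members, 451 kept their direction and side of the threshold. Of the rest, 27 lost a call, 11 gained one and 17 changed sign. Only 7 of the 38 tested members were called in the main fit, so the 451 says little of how firmly calls held. The unknown depth limits what can be said of members below 1 TPM.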
